A study of Punica granatum with 14 samples.

Results

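In the leaves of pomegranate seedlings (Punica granatum), 150 genes were chosen whose reads were more frequent in every plant treated with paclobutrazol than in every other plant of the series. They were chosen by counts per 1000000 reads of a library (CPM), where the score of a gene is its lowest log2(CPM + 1) among the 4 paclobutrazol libraries minus its highest among the 10 other libraries. Of 27893 listed genes, 376 had a score above 0, and the 150 with the highest scores are the members described here. Because the members were selected on these values, the difference between paclobutrazol and the other plants is given as a description without any test.

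The series comprised 14 wild-type seedlings of the cultivar Hongmanao raised in tissue culture, with 2 plants for each of 7 conditions and leaves collected after 90 days. All seedlings had been propagated on medium with the auxin IBA. CK plants were given distilled water only, and the treated plants received paclobutrazol at 6 or 8 mg/L, B9 at 6 or 8 mg/L, or mannitol at 2.5 or 15 g/L. These plants represent seedlings of 1 cultivar in vitro and not orchard trees, and the RNA came from the whole leaf. In such bulk samples, fewer cells of a type and less RNA per cell cannot be told apart.

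Paclobutrazol is a triazole that blocks ent-kaurene oxidase, a cytochrome P450 enzyme of early gibberellin synthesis, and gibberellins are the hormones that drive stem elongation. B9, also called daminozide, acts on later steps of the same pathway, where it competes with the oxoglutarate that gibberellin dioxygenases need. Mannitol is a sugar alcohol that lowers the water potential of the medium and is widely used to impose osmotic stress. The gene symbols of the members are locus numbers without product names, so no role is given for any of them, and leaf markers could not be looked up.

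Library totals lay between 15790717 and 28385703 counts. The 10 most frequent genes took between 7.53% and 10.7% of the counts of a library. Replicate plants correlated with Pearson's r between 0.958 and 0.973 across the tested genes, except for the 2 plants of 6 mg/L paclobutrazol, where r was 0.904. The choice of the members and the contrasts among the other plants are therefore also given without these plants, which were left out after seeing the data.

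The members together took a larger part of the reads in the paclobutrazol plants. They made up 1.57% and 2.10% of the counts in the plants of 6 mg/L and 1.61% and 1.64% in those of 8 mg/L. In CK, the shares were 0.932% and 0.815%. Under B9 they lay between 0.782% and 0.846%, and under mannitol they fell from 0.843% and 0.809% at 2.5 g/L to 0.696% and 0.555% at 15 g/L. Compared to CK, the fitted log2 fold change of a member had a median of 1.42 at 6 mg/L and 1.23 at 8 mg/L. It was over 1 in 111 members at 6 mg/L, in 94 at 8 mg/L and in 90 at both doses, while 35 members stayed under this size at both doses. The median over the members was the same when the 2 members with 0 counts in both CK libraries were set to their lower bounds. Among the other members, the log2 fold change ranged from 0.57 to 4.65 at 6 mg/L and from 0.51 to 4.04 at 8 mg/L.

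**Figure D1:**
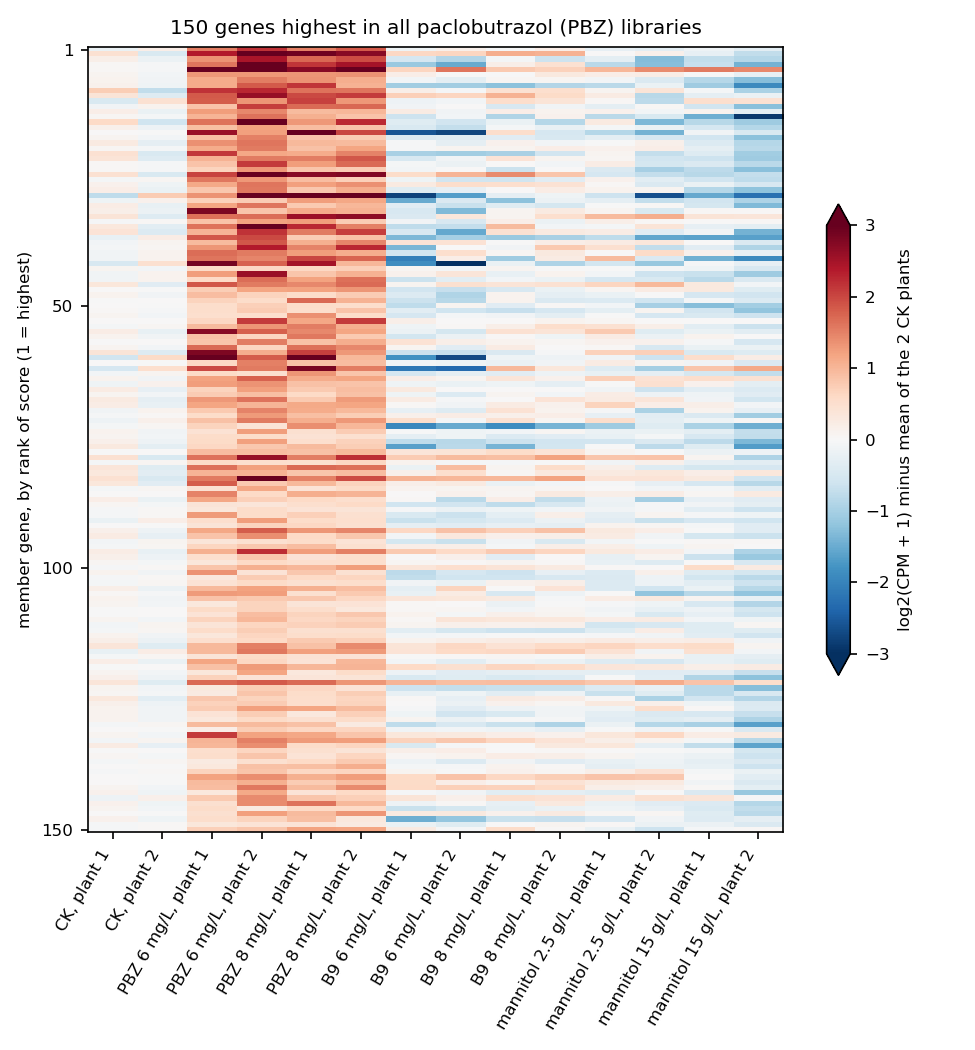
Each row is 1 of the 150 members, ordered by score, and each column is 1 plant; the colour gives log2(CPM + 1) minus the mean of the 2 CK plants. The 4 paclobutrazol columns are the highest in every row, which is how the rows were chosen, and among the other conditions 15 g/L mannitol has the lowest mean in 90 rows.

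For most members the gap between both sets of plants was narrow. Scores ranged from 0.18 to 1.31 with a median of 0.33. A score of at least 1 was found in 5 members, 37 lay between 0.5 and 1, 65 between 0.25 and 0.5, and 43 below 0.25. On the linear scale, the lowest paclobutrazol plant had 1.14 to 5.90 times the CPM of the highest other plant, with a median of 1.30 times, and the ratio was at least 2 in 8 members. The mean of the paclobutrazol plants was at least 2 times the mean of the other plants in 103 members and at least 4 times in 28.

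The highest score belonged to LOC116195075. It had 2.58 and 4.61 CPM in the plants of 6 mg/L and 2.56 and 3.42 CPM in those of 8 mg/L. The other 10 plants had between 0 and 0.433 CPM with a median of 0.131 CPM, so all 4 paclobutrazol plants stood well above them. This gene was sparsely covered, with 52 to 92 reads in the paclobutrazol plants and at most 11 reads in any other plant. Reads were found in all B9 plants, with 3 to 11 counts, and in 1 plant of each mannitol dose, with 1 and 3 counts, which is too few to compare these chemicals.

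LOC116203993 followed with a score of 1.28. Its level was 15.5 and 34.6 CPM at 6 mg/L and 22.9 and 20.0 CPM at 8 mg/L. In the other plants it lay between 0.897 and 5.81 CPM with a median of 2.94 CPM, and the 2 plants of 8 mg/L B9 were the highest of them. LOC116209543 reached 26.4 and 58.4 CPM at 6 mg/L and 34.5 and 41.0 CPM at 8 mg/L. Its next highest plant was CK replicate 1 with 11.3 CPM, and the median of the 10 other plants was 6.36 CPM. For LOC116202415, the plants of 6 mg/L were far apart, with 26.6 and 101.5 CPM, and those of 8 mg/L had 39.2 and 50.5 CPM. The highest of the other plants had 11.4 CPM at 8 mg/L B9, and the lowest had 2.20 CPM at 6 mg/L B9.

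LOC116201476 was measured at 410 and 203 CPM at 6 mg/L, at 110 and 131 CPM at 8 mg/L, and at 16.2 and 15.3 CPM in CK. It was also above CK in all 8 plants of the other chemicals, with 25.1 to 50.2 CPM under B9 and 32.4 to 47.9 CPM under mannitol. LOC116188207 behaved in an even manner, with 202, 203, 206 and 209 CPM in the paclobutrazol plants and 69.5 to 101 CPM elsewhere. No other member had paclobutrazol plants so close to each other.

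The remaining 4 of these 10 members had scores between 0.80 and 0.99. LOC116196211 had 25.7 to 35.6 CPM under paclobutrazol and 4.19 to 12.5 CPM elsewhere, with its lowest values under 15 g/L mannitol. LOC116194885 had 37.7 to 81.6 CPM against 4.02 to 19.4 CPM, where both CK plants, with 19.4 and 16.2 CPM, were above all B9 and mannitol plants. LOC116188963 had 124 to 195 CPM against 20.4 to 67.1 CPM, and its CK plants, with 67.1 and 23.8 CPM, spanned nearly the whole range of the other plants. LOC116194848 had 89.0 to 155 CPM against 13.2 to 50.8 CPM.

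**Figure D2:**
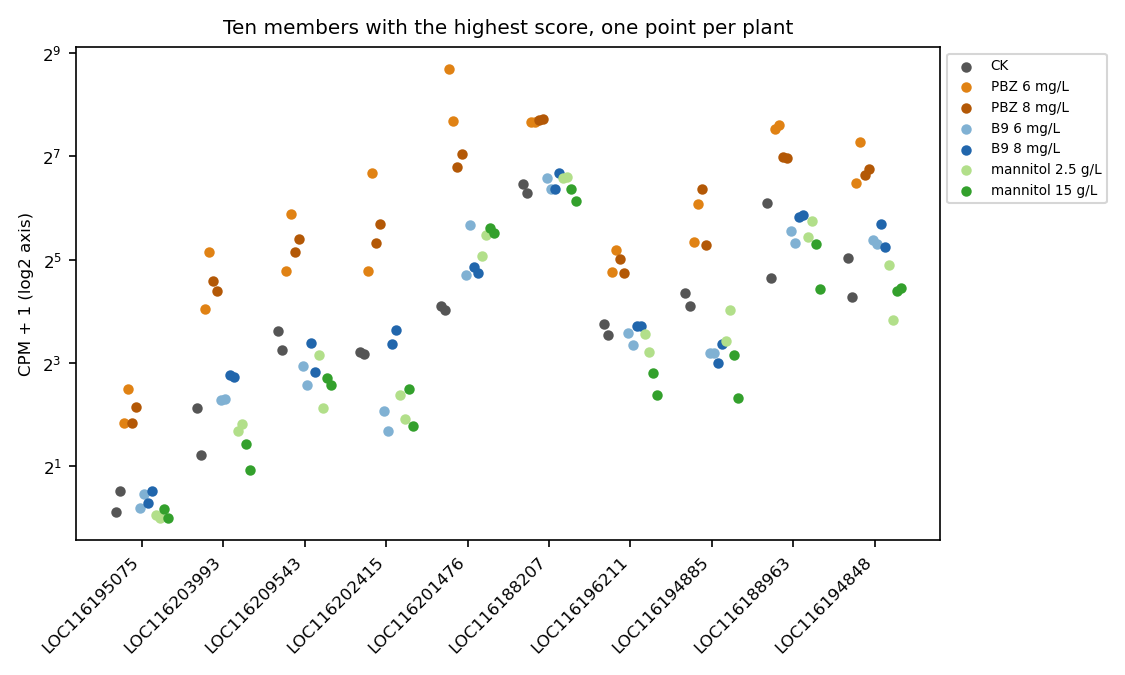
Points give CPM + 1 on a log2 axis for the 10 members with the highest scores, 1 point per plant, coloured by condition. The lowest paclobutrazol point lies above the highest other point in each gene, from 2.56 against 0.433 CPM in LOC116195075 to 89.0 against 50.8 CPM in LOC116194848.

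The 5 members with the most reads outside these 10 had scores between 0.22 and 0.34. CPM is not corrected for transcript length, so these levels are compared within a gene and not between genes. LOC116199936 had 1020 and 1621 CPM at 6 mg/L, 973 and 1115 CPM at 8 mg/L, and 773 and 616 CPM in CK. Its B9 and mannitol plants all lay below CK, between 272 and 508 CPM. LOC116196416 had 702 to 1214 CPM under paclobutrazol and 294 to 575 CPM in the other plants, and LOC116212023 had 578 to 1011 CPM and 259 to 457 CPM, respectively. LOC116213571 had 667 to 825 CPM under paclobutrazol and 350 to 565 CPM elsewhere. LOC116204479 had 570 to 779 CPM under paclobutrazol, 490 and 438 CPM in CK, and 190 to 397 CPM in the B9 and mannitol plants.

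At the other end, 2 members had fewer than 10 reads in every plant without paclobutrazol. LOC116195074 had 12 and 65 reads at 6 mg/L and 25 and 52 reads at 8 mg/L, none in CK, and at most 3 in any B9 or mannitol plant. Its mean under paclobutrazol was 2.08 CPM, at least 16.5-fold higher than the mean level of 3 counts per library in the other plants. LOC116210202 had 41 and 10 reads at 6 mg/L, 23 and 16 at 8 mg/L, none in CK and at most 5 in the B9 and mannitol plants. Values of a few reads carry large counting errors, and reads shared by near-identical gene copies were removed before counting.

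The list ends without a visible step. The last members inside it were LOC116210803, LOC116204038 and LOC116196969, with scores of 0.191, 0.187 and 0.182. The first genes outside it were LOC116202507, LOC116192526 and LOC116210901, with 0.179, 0.179 and 0.178. LOC116204038, for example, had 30.8 to 34.3 CPM under paclobutrazol and 18.8 to 26.9 CPM in the other plants. LOC116202507, just outside, had 52.0 to 74.5 CPM and 32.7 to 45.8 CPM, respectively.

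Within the paclobutrazol plants, the second plant of 6 mg/L was the highest for most members. It held the highest of the 4 values in 88 members, which is 58.7%, compared to 20.5% of all 19478 tested genes. The first plant of 6 mg/L was the highest in 24 members and the lowest in 61. These are 16% and 40.7% of the members, compared to 36.4% and 34.9% of the tested genes. The second plant exceeded the first in 112 members at 6 mg/L and in 85 at 8 mg/L, compared to 46.4% and 44.1% of the tested genes. Without the first plant of 6 mg/L, 1221 genes had a score above 0, and only 58 of the 150 members were among the 150 highest scores. Leaving out the second plant of 6 mg/L gave 497 genes above 0, and 122 members were still chosen. Without both, when the score rests on the 2 plants of 8 mg/L, 2084 genes had a score above 0 and 34 of the members were among the 150 highest.

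The spread between the paclobutrazol plants varied widely. The highest and the lowest of the 4 log2(CPM + 1) values differed by 0.05 to 3.78, with a median of 0.66 compared to 0.88 over the tested genes; the rule favours a high minimum, so this range is a description. LOC116199241 had the largest difference, with 12.7 and 149 CPM at 6 mg/L and 9.89 and 20.0 CPM at 8 mg/L. It was low elsewhere, at 0.743 to 5.69 CPM, and 1 plant made up most of its mean. LOC116194086 had 20.4 and 213 CPM at 6 mg/L and 114 and 136 CPM at 8 mg/L, and LOC116210418 had 45.3 and 17.0 CPM at 6 mg/L and 113 and 30.0 CPM at 8 mg/L. The smallest differences, after LOC116188207, were those of LOC116209972, an lncRNA gene with 8.51 to 9.12 CPM under paclobutrazol and 3.56 to 6.59 CPM elsewhere, and of LOC116188377, with 159 to 175 CPM and 76.4 to 113 CPM.

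**Figure D3:**
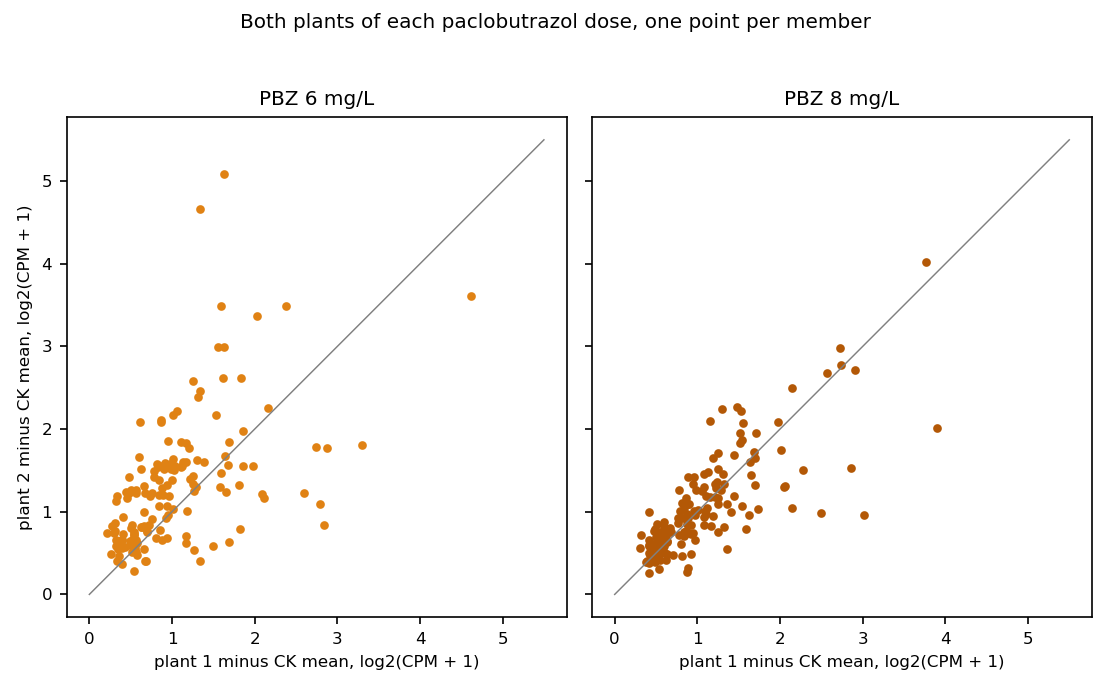
Each point is 1 of the 150 members; the axes give log2(CPM + 1) minus the CK mean in plant 1 and plant 2 of 6 mg/L (left) and 8 mg/L (right) paclobutrazol, and the line marks equal values. At 6 mg/L, 112 points lie above the line. There, 24 of the 150 members differ by more than 1 between the plants, compared to 25.8% of the tested genes. At 8 mg/L, 5 of the 150 members do, compared to 4.3% of the tested genes. The rule favours a high minimum among these plants, so these counts are a description.

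Whether the higher dose of paclobutrazol changed the members further was tested between 8 and 6 mg/L, a contrast inside the paclobutrazol plants. No member was a DEG, that is, none had an absolute log2 fold change over 1 with an adjusted p under 0.05 in edgeR's quasi-likelihood test, whereas 1.49% of the tested genes were, 0.924% of them lower at 8 mg/L. At the same fold threshold and an unadjusted p under 0.05 in this test, 4 members were lower at 8 mg/L and none was higher. The shares of the tested genes were 6.53% and 5.09%. DESeq2 called 3 members, all lower, which is 2.00% compared to 7.35% of the genes it tested. The rule takes the lowest of these same 4 plants and so favours genes with close values among them, and the small number of calls is not independent of that choice. The fitted values were lower at 8 mg/L in 107 members and higher in 43, compared to 52.4% and 47.5% of the tested genes. The median log2 fold change of the members was -0.16, and that of all tested genes was -0.04. Both plants of 6 mg/L were above both plants of 8 mg/L in 32 members, or 21.3%, compared to 15.8% of the tested genes, and the reverse order was found in 17 members, or 11.3%, compared to 24.8%.

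The direction of this median depended on the plants of 6 mg/L. Without the first plant it was -0.34 in the members and 0.02 over all tested genes, and without the second it was 0.17 and 0.07. The 3 members that DESeq2 called were LOC116186958, LOC116201476 and LOC116188470, and their values were read after the calls were known. LOC116186958 had 78.3 and 85.3 CPM at 6 mg/L and 36.1 and 38.9 CPM at 8 mg/L, so the doses did not overlap. Its log2 fold change was -1.16 ± 0.27 (SE), with an adjusted p of 0.059 in the quasi-likelihood test of edgeR after Benjamini-Hochberg adjustment and of 0.0019 in DESeq2. LOC116201476, described above, had a log2 fold change of -1.36 with adjusted p-values of 0.070 and 0.0037 in edgeR and DESeq2, respectively. LOC116188470 had 69.7 and 177 CPM at 6 mg/L and 52.2 and 60.4 CPM at 8 mg/L, and its adjusted p-values in the 2 tools were 0.126 and 0.040.

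Among the plants without paclobutrazol, the members were not at 1 common level. Relative to the CK mean, the median difference in log2(CPM + 1) over the members was -0.09 and -0.08 in the plants of 6 mg/L B9 and 0.02 and 0.04 in those of 8 mg/L B9. It was close to 0 and -0.14 at 2.5 g/L mannitol and reached -0.23 and -0.50 at 15 g/L. In these last 2 plants, the median over all tested genes was -0.12 and -0.17. In the 4 paclobutrazol plants, the members' median lay between 0.88 and 1.23.

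**Figure D4:**
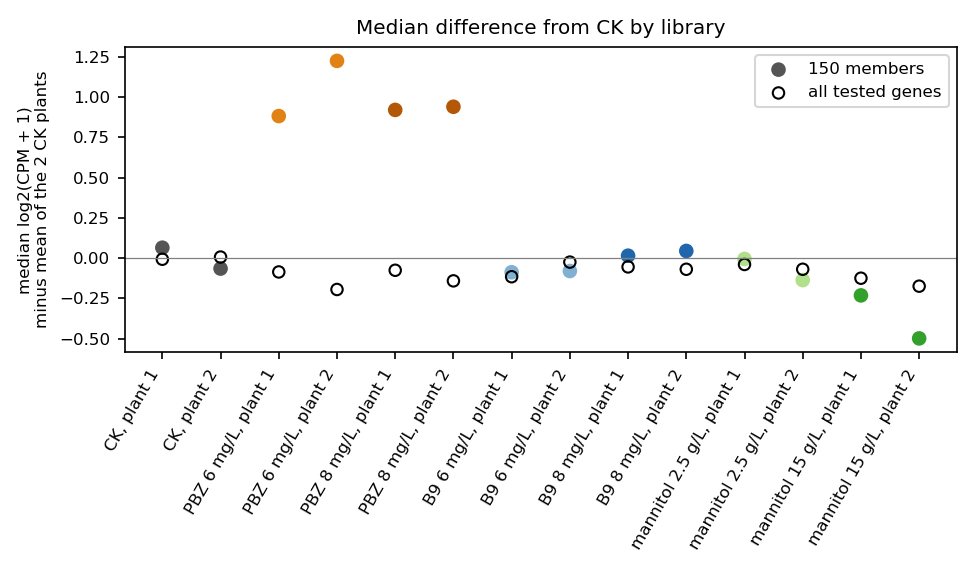
Filled points give the median over the 150 members and open circles the median over all tested genes of log2(CPM + 1) minus the mean of the 2 CK plants, by library. The paclobutrazol plants lie at 0.88 to 1.23 by choice of the members, and the second plant of 15 g/L mannitol is the lowest at -0.50.

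The second plant of 15 g/L mannitol was the lowest of the 10 plants without paclobutrazol in 84 members, or 56.0%, compared to 21.2% of the tested genes. By condition means, 15 g/L mannitol was the lowest in 90 members, or 60%, compared to 27.5%. The mean at 2.5 g/L was above that at 15 g/L in 126 members, and both plants of 2.5 g/L were above both plants of 15 g/L in 79, compared to 61.3% and 35.9% of the tested genes. Under B9, the order went the other way, with a higher mean at 8 than at 6 mg/L in 102 members and no overlap of the doses in 47, compared to 47.4% and 19.3% of the tested genes. The highest mean among the conditions without paclobutrazol was that of CK in 49 members, or 32.7%, and that of 8 mg/L B9 in 45, or 30%, compared to 29.1% and 18.8% of the tested genes. None of these counts was tested, and the rule, which takes the maximum of the other plants, bears on which plant can be the highest.

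B9 and CK were compared to see whether a second retardant of gibberellin synthesis moved the same genes. With both doses of B9 averaged, 5 members were DEGs, 3.33% of the 150, compared to 8.51% of all tested genes. Of these members, 2 were upregulated and 3 were downregulated, compared to 3.7% and 4.81% of the tested genes. At the same fold threshold and an unadjusted p under 0.05 in edgeR, 16 members, or 10.7%, passed, compared to 17.1%. The median log2 fold change was 0.05 for the members and 0.01 for all tested genes. All 4 B9 plants were above both CK plants in 26 members, or 17.3%, compared to 25.3% of the tested genes, and all 4 were below in 32 members, or 21.3%, compared to 31.7%. The score subtracts the highest of these same plants, so the shares of the members in contrasts among the plants without paclobutrazol are not independent of the rule, and no difference from the tested genes is read from them.

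LOC116192224 was upregulated under B9. It had 5.97 and 3.25 CPM in CK and 10.1, 9.14, 9.27 and 9.26 CPM in the B9 plants. The groups did not overlap, and the log2 fold change was 1.12 ± 0.27 (SE) with an adjusted p of 0.030 in edgeR's quasi-likelihood test. It ranged from 0.69 to 1.62 when each plant was left out, and the call was lost in 5 of 14 such fits, with an adjusted p of up to 0.229 in edgeR. Under paclobutrazol it had 12.7 to 18.5 CPM. All 4 mannitol plants were also above both CK plants, with 8.53, 10.7, 8.87 and 6.79 CPM. LOC116201476 was the other upregulated member, with a log2 fold change of 1.10 ± 0.30 (SE) and an adjusted p of 0.041 in the same edgeR test; all 4 of its B9 plants were above both CK plants. This call was lost in 11 of 14 fits with 1 plant left out.

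The 3 downregulated members were below CK in the B9 mean. That every paclobutrazol plant was above CK follows from the choice of the members. LOC116215657 had 140 and 153 CPM in CK, 37.4, 50.3, 39.5 and 55.6 CPM under B9, and 195 to 389 CPM under paclobutrazol. Its mannitol plants, with 69.1, 113, 75.7 and 52.8 CPM, were also below both CK plants. Its log2 fold change between B9 and CK was -1.59 ± 0.24 (SE) with an adjusted p of 0.0084 in edgeR's quasi-likelihood test, and the groups did not overlap. LOC116186958 had 17.6 and 24.7 CPM in CK and 7.53, 10.03, 9.05 and 10.2 CPM under B9. All B9 plants were thus lower than CK, with a log2 fold change of -1.11 ± 0.22 (SE) and an adjusted p of 0.018 in edgeR. Its mannitol plants, described below, were lower than CK as well.

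LOC116210418 had 6.76 and 6.59 CPM in CK and only 0.274 and 0.141 CPM at 6 mg/L B9, but 10.1 and 4.37 CPM at 8 mg/L B9. Its values at 6 mg/L B9 rest on 6 and 3 reads, compared to 170 and 154 reads in CK, and carry large counting errors. The log2 fold change of -2.33 ± 0.61 (SE), with an adjusted p of 0.036 in edgeR's quasi-likelihood test, averages these unlike doses, and at 8 mg/L the B9 plants lay on both sides of CK. Under mannitol LOC116210418 had 3.26, 1.88, 6.17 and 4.61 CPM, below both CK plants. The calls for LOC116215657, LOC116186958 and LOC116210418 were lost in 1, 3 and 7 of the 14 fits, respectively.

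Calls between B9 and CK depended on single plants, in the members as over all genes. Without CK replicate 2, no gene was called, and without CK replicate 1, 2 members and 269 genes in all were. Leaving out B9 8 mg/L replicate 2 left 1 member and 453 genes, and leaving out the second plant of 6 mg/L B9 left 3 members and 580 genes. Without either plant of 15 g/L mannitol, 3 members were called beside 1086 and 1084 genes in all. Without the 2 plants of 6 mg/L paclobutrazol, 11 members were called, among them all 5, which is 7.33% of the members compared to 15.6% of the tested genes.

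Under mannitol, no member was a DEG relative to CK, and 0.0667% of the tested genes were, with 0.0308% of them lower under mannitol. At the same fold threshold and an unadjusted p under 0.05 in edgeR, 9 members passed, or 6%, compared to 6.04% of the tested genes. DESeq2 called 3, or 2.00%, compared to 2.92%. The median log2 fold change of the members was -0.14, compared to 0.02 over all tested genes. With each library's trend with gene length removed, these medians were -0.01 and 0.15. Without this correction, 93 members were lower and 57 higher than CK in the fit, compared to 48.2% and 51.8% of the tested genes. Both CK plants were above all 4 mannitol plants in 36 members, or 24%, compared to 20.8% of the tested genes, and the reverse held in 6 members, or 4%, compared to 8.16%. LOC116186958, named here after its values were seen, had 6.11 to 11.8 CPM under mannitol, below both CK plants, with a log2 fold change of -1.36 and an adjusted p of 0.057 in edgeR's quasi-likelihood test. LOC116201476 was higher than CK in all 4 mannitol plants, with a log2 fold change of 1.56 and an adjusted p of 0.074 in edgeR. LOC116192224 was likewise higher in all 4, with a log2 fold change of 1.05 and an adjusted p of 0.127 in edgeR. These 3 members were the ones that DESeq2 called. Without the 2 plants of 6 mg/L paclobutrazol, 2 members were called under mannitol, or 1.33%, compared to 1.98% of the tested genes.

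B9 was then compared directly with mannitol. In this contrast 2 members were DEGs, both higher under B9, which is 1.33% of the members compared to 5.19% of all tested genes. Of the tested genes, 2.29% were DEGs higher under B9 and 2.9% were lower. The fitted values were higher under B9 in 100 members and lower in 50, compared to 51.7% and 48.3% of the tested genes. The median log2 fold change was 0.18 in the members and 0.02 over all tested genes, but it was -0.01 in the members and -0.03 over all tested genes with the length trend removed. All 4 B9 plants were above all 4 mannitol plants in 23 members, or 15.3%, compared to 19.7% of the tested genes, and all 4 were below in 4 members, or 2.67%, compared to 13.0%.

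LOC116194671 had 26.5, 37.3, 48.8 and 32.4 CPM under B9 and 12.3, 10.4, 9.61 and 10.3 CPM under mannitol. The groups did not overlap, and CK, with 24.6 and 12.8 CPM, lay between them. The log2 fold change was 1.70 ± 0.32 (SE), with an adjusted p of 0.023 in the quasi-likelihood test of edgeR after Benjamini-Hochberg adjustment. LOC116203993 had 3.88, 3.94, 5.81 and 5.60 CPM under B9 and 2.19, 2.53, 1.70 and 0.897 CPM under mannitol. These groups did not overlap either, and the log2 fold change was 1.38 ± 0.36 (SE) with an adjusted p of 0.044 in edgeR. No member was called when any 1 B9 plant, either plant of 15 g/L mannitol or the second plant of 2.5 g/L mannitol was left out, and in these fits at most 120 of all tested genes were. Without mannitol 2.5 g/L replicate 1, CK replicate 2 or either plant of 8 mg/L paclobutrazol, 1 member was called, which in the first of these fits was neither of the 2, beside 416 to 575 genes in all. Without the 2 plants of 6 mg/L paclobutrazol, 6 members were called, or 4%, compared to 11.1% of the tested genes.

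**Figure D5:**
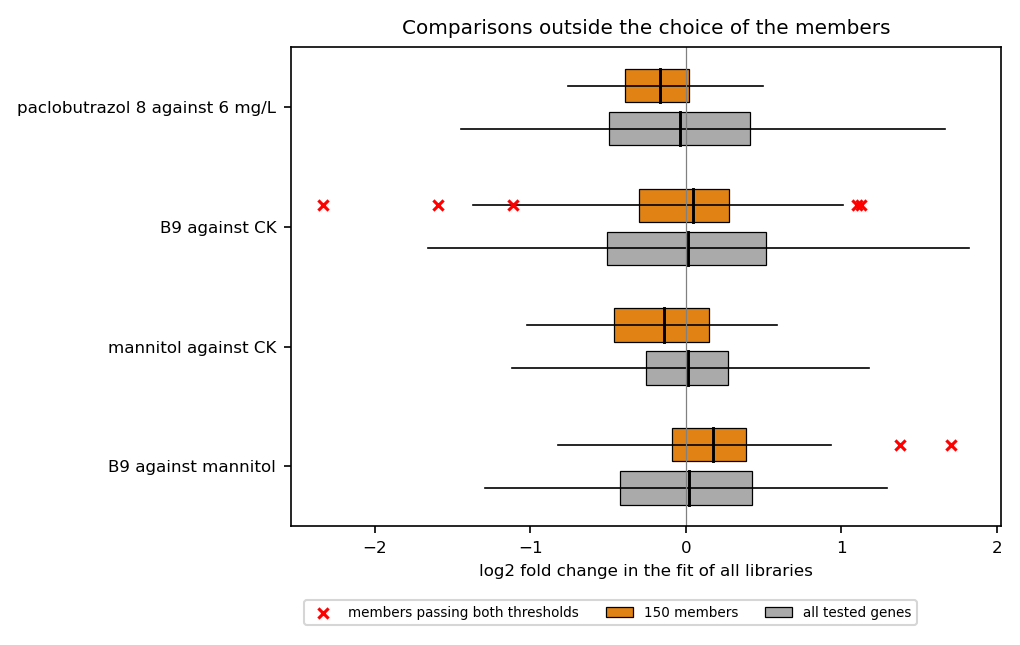
Boxes give the quartiles and the median of the fitted log2 fold change for the 150 members and for all tested genes in 4 contrasts, whiskers run from the 5th to the 95th percentile, and crosses mark members that passed both thresholds. Crosses appear between B9 and CK (5 members) and between B9 and mannitol (2 members), and the boxes of the members are centred at -0.16, 0.05, -0.14 and 0.18 from top to bottom.

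By annotation, 142 members were protein-coding genes and 8 were lncRNA genes, or 5.33%, compared to 4.46% of the tested genes. No lncRNA was among the 10 highest scores. Their mean level under paclobutrazol was between 1.58 and 31.6 CPM. The lncRNA LOC116205770 had 14.2 to 23.5 CPM under paclobutrazol and 3.76 to 8.61 CPM in the other plants, and LOC116207998 had 20.3 to 28.5 CPM and 5.98 to 13.0 CPM, respectively. Both were picked for mention after their values were seen.

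The members spanned shorter stretches of the genome than the tested genes. The median gene span, introns included, was 2306 bases in the members, with a range from 405 to 16294 bases, and 3104 bases in the tested genes. Gene length also moved with the libraries. Across the tested genes, the difference from CK correlated with the gene span at Spearman's rho of -0.36 in the second plant of 6 mg/L paclobutrazol and of -0.33 and -0.35 in the plants of 8 mg/L, but 0.08 in the first plant of 6 mg/L. The B9 plants had -0.17 and -0.14 at 6 mg/L and -0.27 and -0.29 at 8 mg/L. The mannitol plants lay between -0.15 and 0.13. The 2 CK plants, each set against their common mean, had 0.11 and -0.11. These correlations are across genes within a library, and genes are not independent replicates. With each library's trend with length removed, 135 of the 150 members still had a score above 0, and 100 were among the 150 highest. The part of length in the choice of the members was otherwise not tested.

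Few members lay next to each other in the genome. LOC116194848 and LOC116194671 were the only pair of members with no other gene between them. LOC116194671 had 75.4 and 192 CPM at 6 mg/L paclobutrazol and 124 and 127 CPM at 8 mg/L, and LOC116194848 had 89.0 and 155 CPM and 98.9 and 107 CPM in the same plants. In both genes the second plant of 6 mg/L was the highest and the first the lowest. Under mannitol LOC116194848 had 13.2 to 28.9 CPM, compared to 36.9 to 50.8 CPM under B9, so that B9 and mannitol did not overlap in either gene. Whether reads of one could be counted for the other was not tested.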

How the data were processed

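RNA-seq was carried out by the authors on leaves of 14 seedlings. Reads were aligned to the published P. granatum reference genome with HISAT2, reads mapped to more than 1 location were removed, and the rest were assigned to genes with featureCounts. The deposited table holds raw counts of 27893 genes without normalization. The name of the genome build, the program versions and the use of strand are not given in the sources used here, so overlapping and antisense genes are uncertain. Conditions and replicate numbers were taken from the sample labels. Of the symbols, 27509 matched the RefSeq table of ASM765513v2, which was used for biotype, gene span and gene order; product names and sequences were not used here.

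CPM were computed from library totals with a pseudocount of 1 on the log2 scale. Differential expression was tested in R 4.3.3 with edgeR 4.0.16 (filterByExpr with a minimum count of 10, TMM, glmQLFit and glmQLFTest, 7 condition means in 1 fit) on 19478 genes; all 150 members passed this filter, which their paclobutrazol plants alone can satisfy. Benjamini-Hochberg adjustment ran over all tested genes. DEGs needed a log2 fold change beyond 1 in either direction and an adjusted p below 0.05. The biological coefficient of variation was 32.2%, with 7 residual degrees of freedom. Log2 fold changes had a median standard error of 0.34 between the paclobutrazol doses, 0.30 against CK and 0.24 between B9 and mannitol. Contrasts against CK share its 2 plants. Per the paper, leaves were taken from 2 plants of each condition as biological replicates. The fit estimated 1 spread per gene over all 7 conditions. The p-values thus measure the spread between replicate plants pooled over the conditions, and not that of the compared plants alone. The edgeR fit was tried on simulated counts for the contrast between the paclobutrazol doses only. The score, the other contrasts and the alternatives were not tried in this way.

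The members, lists and tests were chosen with earlier results of these data known. Named genes are the 10 highest scores, the 5 highest mean CPM under paclobutrazol outside those, up to 3 called members per direction and contrast, 3 genes on each side of the list's end, neighbouring members, and the 3 largest and 3 smallest ranges under paclobutrazol; others are named as chosen after their values were seen. Alternatives were DESeq2 1.42.0, its size factors, omission of the filter, a minimum mean of 50 counts, the compared groups only, a replicate block, removal of the length trend (lowess, span 0.3), each plant left out and, chosen after seeing the data, a fit without the 2 plants of 6 mg/L paclobutrazol. Planned lists by product name, leaf markers and protein identity were not run.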

Additional observations from a re-analysis of the deposited data

Results flagged for a closer look

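The effects of B9 and mannitol differed in 2 members by a direct test of the difference. This is 1.33% of the members, compared to 5.19% of all tested genes. The rule uses the highest of these same plants, so the share of the members is not independent of it. LOC116194671 was higher under B9 than under mannitol by 1.70 on the log2 scale, with all 4 B9 plants above all 4 mannitol plants, and LOC116203993 was higher by 1.38, also in all 4 plants. Their adjusted p-values in edgeR's quasi-likelihood test were 0.023 and 0.044. Over the 14 fits that each left out 1 plant, the adjusted p reached 0.107 and 0.160, and the calls were lost in 8 and 11 of these fits, respectively. No cause was tested.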

How the results depend on the processing

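Members called between 8 and 6 mg/L paclobutrazol numbered 0, but 3 by DESeq2 and 3 with the length trend removed, and 0 to 4 when each plant was left out. Between B9 and CK, 5 became 9 by DESeq2, 9 with the compared groups only, 11 without the plants of 6 mg/L paclobutrazol, and 0 to 11 with each plant left out. Under mannitol, 0 became 3 by DESeq2, 2 with the length trend removed, 1 with the compared groups only, 2 without the plants of 6 mg/L paclobutrazol, and 0 to 2 with each plant left out. Between B9 and mannitol, 2 became 8, 4, 5 and 6 under these 4 settings and 0 to 6 with each plant left out. The cause was not tested. Over all genes, the 4 counts of DEGs were 291, 1658, 13 and 1011, but 1413, 2812, 561 and 2047 by DESeq2. They were 0, 2986, 270 and 2086 with the compared groups only, and 463, 1821, 92 and 1188 with the length trend removed. By DESeq2, 2%, 6%, 2% and 5.33% of the members were called, compared to 7.35%, 14%, 2.92% and 10.7% of the genes it tested. With the length trend removed, the shares were 2%, 4.67%, 1.33% and 2.67%, compared to 2.38%, 9.35%, 0.472% and 6.1%. Counts over all genes also moved with each plant left out, so no count of members is read alone.

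With each plant left out, 379 to 1221 genes had a score above 0, and 58 to 149 members were among the 150 highest. Without both plants of 6 mg/L paclobutrazol, these were 2084 and 34. With TMM-scaled totals or DESeq2's size factors in the score, 545 and 553 genes had a score above 0, compared to 376 by the rule. In these settings 133 and 132 members were chosen. Removal of the length trend also gave 545 genes above 0. Replicate numbers were not used to pair the plants in the main fit. The differences between replicates correlated over 0.1 in only 6 of 21 pairs of conditions, with a range from -0.29 to 0.39. The labels do not say whether plants with the same replicate number shared a batch. With a replicate block, the calls were 0, 6, 0 and 2, of which 4 between B9 and CK and 1 between B9 and mannitol were shared with the fit without it; LOC116201476 between B9 and CK and LOC116203993 between B9 and mannitol were lost, both with an adjusted p of 0.052 in edgeR. Of the 7 called members, no log2 fold change turned its sign under the alternatives run. The members' median turned from -0.16 to 0.17 between the paclobutrazol doses without the second plant of 6 mg/L, from 0.05 to -0.12 between B9 and CK without CK replicate 2 and to -0.01 without the first plant of 6 mg/L B9 or with the length trend removed, and from 0.18 to -0.01 between B9 and mannitol with the length trend removed. With 2 plants a condition, changes near the median standard errors could not be resolved.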
